A study of Mus musculus with 21 samples.

Results

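Light zone germinal centre B cells were taken as the cells whose state the depositors named LZ in their cell table and whose names place them in the non-PC fraction, the sorted B cells that were not plasma cells. There were 3116 such cells among 6619 in all, or among 6183 of the non-PC fraction, and each of the 6 mice gave 276 to 697 of them. The other states set beside them, all from the non-PC fraction of the same mice, were 2347 dark zone (DZ) cells, 486 cells named preMem and 189 cells named LZtoDZ. A further 78 LZ cells had been sorted into the plasma cell (PC) fraction and were not used.

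The study followed the primary response of draining lymph nodes to NP-KLH, a hapten coupled to a carrier protein. Mice received 100 µg of it under the skin with an adjuvant, Sigma Adjuvant System, and then a single gavage of 5 mg of tamoxifen at least 6 days later, which switched on an eYFP label through Cre-ERT2. Living IgD-negative eYFP+ cells were sorted at day 10, day 16 or day 22, with 2 mice a day. Cells of each mouse carried their own barcoded anti-CD45 antibody, were pooled within a fraction and went through droplet capture for 5' single-cell RNA sequencing, which counts molecules by unique molecular identifiers (UMIs). All mice carried the immunisation and the tamoxifen, and no unimmunised mice were analysed here. The labels used here give neither strain, age nor the gene that drives Cre-ERT2, and eYFP marks only cells in which it acted at the gavage.

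The germinal centre is where B cells mutate their antibody genes and compete for help. In its dark zone they divide and mutate, and in its light zone they take up antigen held on follicular dendritic cells, present it on MHC class II and receive signals from T follicular helper cells through CD40 and other receptors. A minority of light zone cells induce Myc, enter the cell cycle and return to the dark zone, while others leave as memory B cells or plasma cells. CD83, CD86 and CD23 (Fcer2a) are surface proteins used to recognise light zone cells.

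The LZ cells held 1335 to 40728 UMIs each, and their sums ran from 2681327 to 6762851 UMIs a mouse. Mean UMIs per cell, averaged over mice, were 8880 ± 718 (SD, n = 6 mice) in LZ cells, 11088 ± 1272 in DZ cells, 24842 ± 2879 in LZtoDZ cells and 5664 ± 646 in preMem cells, so the states differ in depth. The deposited scores show sharp cuts at the borders to preMem and LZtoDZ cells and an overlap at that to DZ cells. The memory score reached 0.77990 in LZ cells and started at 0.78004 in preMem cells, and the score named ACT reached 0.57927 in LZ cells and started at 0.58028 in LZtoDZ cells. Within 0.02 of those borders lay 59 LZ and 64 preMem cells, and 44 LZ and 24 LZtoDZ cells. The score LZDZ_noCC_conti reached 0.51458 in LZ cells and started at 0.49740 in DZ cells, and 99 LZ and 164 DZ cells lay in that overlap. The state is therefore a range along these scores, and comparisons between states below describe what the naming selected, with no claim from a test. On other cell types, Cd3e was 0 in LZ cells of every mouse. The summed level of 5 T cell markers was 83.2 to 149 counts per 1000000 UMIs (CPM) and of 5 myeloid markers 9.17 to 124 CPM, the highest in the first day 22 mouse. NK cell markers summed to 12.0 CPM in that mouse and 0 to 0.373 CPM in the others. Erythroid markers summed to 10.4 to 40.4 CPM. Plasma cell markers summed to 1024 to 1141 CPM and naive B markers to 10.6 to 22.3 CPM. The plasma cell list includes Jchain, whose level in LZ cells is given below, and it summed to 1595 to 1856 CPM in DZ cells. The T cell list summed to 39.4 to 82.2 CPM in DZ cells. It includes Lck, which was higher by 1.13 on the log2 scale in LZ than in DZ cells called G1. How far other cell types contributed to these sums was not tested. In all, 6 cell barcodes occurred in both fractions.

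All 5 markers of the light zone were higher in LZ than in DZ cells of the same mice. In plain CPM, Cd83, a surface protein that stabilises MHC class II and CD86, stood at 466 to 528 in LZ cells with a median of 510 over mice, and at 98.7 to 126 in DZ cells. Cd86, a ligand for CD28 on T cells, was at 115 to 147 CPM against 60.5 to 72.6 CPM. Il4i1, a secreted enzyme that oxidises amino acids, was at 173 to 284 CPM against 37.4 to 65.8 CPM. No LZ value of these 3 genes, or of Fcer2a and Egr1 given next, overlapped the DZ values. Fcer2a, the low-affinity IgE receptor CD23, stood at 150 to 321 CPM in LZ and 40.0 to 96.7 CPM in DZ cells, and Egr1, a transcription factor induced within minutes of receptor signals, at 57.1 to 111 CPM and 19.5 to 46.7 CPM. The sum of the 5 was 1067 to 1259 CPM in LZ cells, 513 to 938 in LZtoDZ, 940 to 1865 in preMem and 272 to 369 in DZ cells. The ranges of LZ and preMem cells overlap, so the markers set LZ apart from DZ cells in these mice but not from preMem cells. In GRCm38 (GENCODE M21), the protein-coding gene Cd83 lies at chr13:43784775-43803132 on the plus strand, Cd86 at chr16:36603869-36666081 on the minus strand, Il4i1 at chr7:44816387-44840809 on the plus strand and Fcer2a at chr8:3681737-3694175 on the minus strand.

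**Figure D1:**
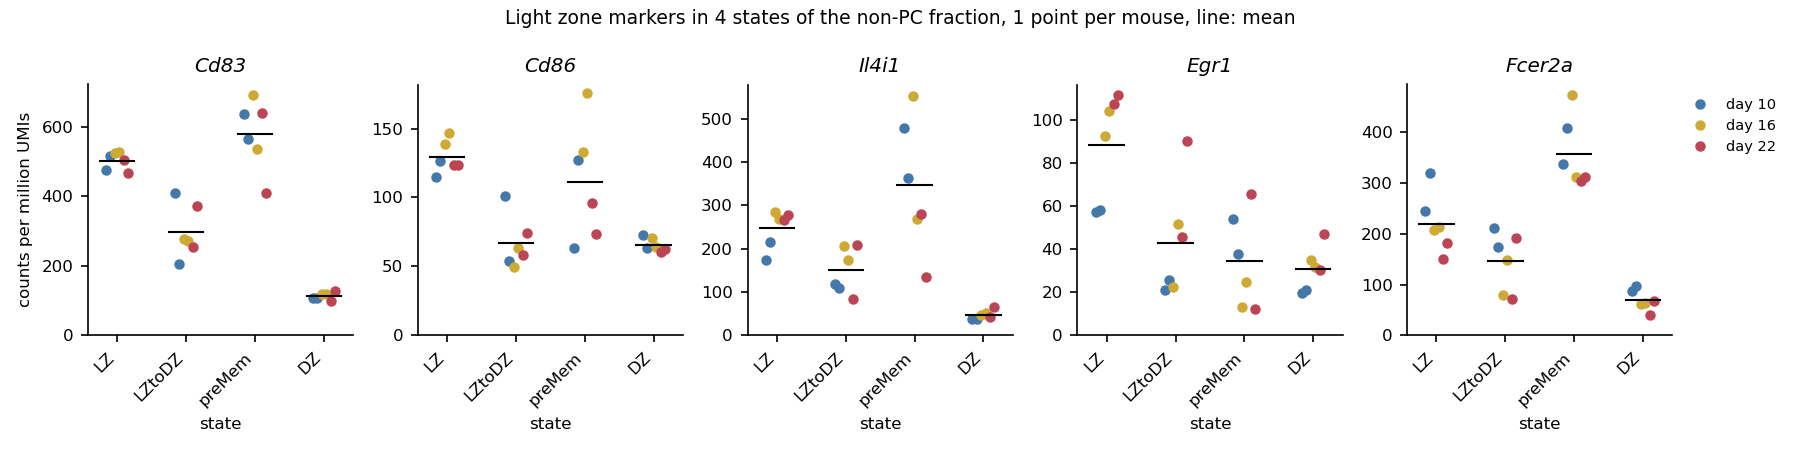
CPM (y axis, from 0) of the 5 light zone markers in the summed cells of 4 states (x axis), with 1 point per mouse coloured by day and a line at the mean. LZ points lie above DZ points for all 5 genes, and preMem points of Cd83, Il4i1 and Fcer2a reach or pass those of LZ cells.

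Against DZ cells of the same mice, LZ cells held more RNA of T cell contact, NF-kB and antigen presentation genes, as a share of all UMIs, and less of mitotic and mutation genes. Of 9905 genes tested with edgeR's quasi-likelihood test on sums per mouse, with the mouse as a block, 34.2% passed an adjusted p of 0.05 (Benjamini-Hochberg), 17.6% higher and 16.6% lower in LZ cells. Among genes of T cell contact 12 of 15 were higher and 1 lower, and among NF-kB subunits, feedback genes and targets 17 of 19 were higher and 1 lower, with a median log2 difference of 0.95 beside 0.01 over all genes tested. Nfkbia, the inhibitor of NF-kB that is also induced by it, had 239 CPM in the lowest LZ sum, 281 in the median and 324 in the highest, against 78.7, 89.7 and 104 in DZ sums, where CPM from here on is scaled by TMM within each comparison. Every LZ value exceeded every DZ value, with a log2 difference of 1.62 ± 0.07 (SE). Cd40, the receptor for the main signal of helper T cells, stood at 91.0, 111 and 126 CPM against 26.5, 41.4 and 44.9 CPM, a difference of 1.45 ± 0.06. All 11 MHC class II genes were higher, with a median of 0.63, among them Ciita, the coactivator that switches the class II genes on, at 0.71 ± 0.06.

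Genes of mitosis were lower in LZ cells in 21 of 21 cases, with a median of -0.98, and those of the dark zone and of mutation in 8 of 13 cases, with 2 higher. Cxcr4, the chemokine receptor that holds cells in the dark zone, had 12.3, 14.6 and 19.7 CPM (lowest, median and highest) in LZ sums and 26.3, 30.8 and 39.4 CPM in DZ sums. Polh, a polymerase that copies past DNA lesions, had 27.8, 30.4 and 36.7 CPM against 66.9, 79.0 and 81.4 CPM. Neither gene's ranges overlapped, and the differences were -1.05 ± 0.09 and -1.28 ± 0.06. With only cells called G1 on both sides, 10.1% of 8222 genes were higher and 9.58% lower. Mitosis genes then split into 2 higher and 5 lower of 21, while NF-kB genes had 15 higher and 1 lower of 18, MHC class II genes 11 of 11 higher and dark zone and mutation genes 2 higher and 6 lower of 12.

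The deposited cell cycle calls split the LZ cells into 1691 in G1, 1008 in S and 417 in G2M. Over mice, 53.9% ± 5.43 (SD, n = 6) of LZ cells were called G1, 32.5% ± 2.43 S and 13.6% ± 3.44 G2M. In DZ cells of the same mice 37.2% were called G1, 26.2% S and 36.7% G2M, and in preMem cells 90.7% were called G1. In LZtoDZ cells 12.4% were called G1 and 64.1% S. The G1 and S shares of LZ cells differed from those of each other state in 1 direction in 6 of 6 mice, and the G2M share lay below that of LZtoDZ cells (23.5%) in 5 of 6. The calls read the same RNA as the scores that bound the states, so these shares are a description and no test is given. How the calls were made is not stated in the sources used here.

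**Figure D2:**
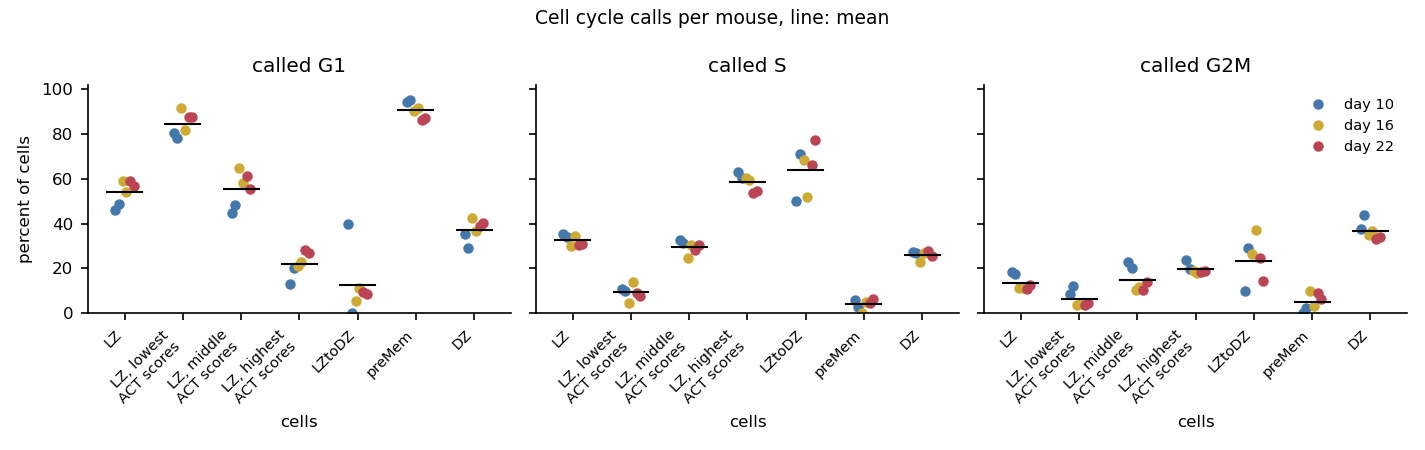
Percent of cells called G1, S and G2M (y axes) in each mouse, for all LZ cells, for LZ cells cut into 3 equal parts by ACT score within each mouse, and for LZtoDZ, preMem and DZ cells (x axis), with a line at the mean. Among LZ cells the mean G1 share goes from 84.5% at the lowest ACT scores to 22.0% at the highest.

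Within the light zone, cells called S or G2M gave a smaller share of their RNA to the light zone's own genes than G1 cells. Cd83 was at 599, 667 and 712 CPM (lowest, median and highest mouse) in G1, at 356, 429 and 461 CPM in S and at 305, 334 and 420 CPM in G2M, with no overlap of G1 with either. The log2 difference from G1 was -0.66 ± 0.04 in S and -0.93 ± 0.06 in G2M. Il4i1 fell from 331, 400 and 441 CPM in G1 to 89.2, 151 and 174 CPM in S, a difference of -1.41 ± 0.06, the widest of the 5 markers. Fcer2a and Cd86 were lower in both, by -0.72 and -0.46 in S. Egr1 did not pass in S (-0.50 ± 0.19, edgeR adjusted p = 0.0987, though it did without the second day 10 mouse, -0.63, or the first day 16 mouse, -0.37) and did in G2M (-0.50 ± 0.09). Between S and G1, 39.3% of 8779 genes passed, 20.6% higher and 18.7% lower, and between G2M and G1 38.7% of 8033, 20.5% higher and 18.3% lower.

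The lists moved with the markers on this scale. T cell contact genes were lower in S in 12 of 13 cases and higher in 1, Tnfsf9, the ligand of the receptor 4-1BB. NF-kB genes were lower in 14 of 18, MHC class II genes in 10 of 11 and B cell receptor signalling genes in 15 of 16, with none higher in these 3 lists. The replication list was higher in 22 of 22 and the Myc list in 17 of 25, with 1 lower, Batf, a transcription factor induced by CD40 and IL-21 signals. Rrm2, a subunit of the enzyme that makes DNA precursors, went from 37.1 to 44.2 CPM in G1 to 402 to 507 CPM in S. The phase calls are themselves read from RNA. The replication list and Rrm2 therefore describe what the calls selected, with no claim from a test.

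Counts per cell gave another order than CPM, since S and G2M cells held more UMIs: 6906 ± 408 UMIs in G1, 10554 ± 760 in S and 12691 ± 379 in G2M. The 11 MHC class II genes summed to 358 ± 19.4 UMIs per cell in G1, 394 ± 34.8 in S and 465 ± 41.0 in G2M, and the B cell receptor genes to 60.2, 70.4 and 81.0. Cd83 gave 4.52, 4.41 and 4.37 UMIs per cell. Of NF-kB and T cell contact genes, Nfkbia gave 2.08, 2.46 and 4.03 UMIs per cell, Cd40 0.853, 1.01 and 1.26, and Cd86 1.09, 1.22 and 1.12. Il4i1 was lower on both scales, at 2.68 UMIs per cell in G1, 1.53 in S and 1.64 in G2M. Cells called S or G2M thus held no less MHC class II RNA per cell than G1 cells, while its share of their UMIs was smaller.

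The score named ACT spreads the LZ cells from 0.09284 to 0.57927 with a median of 0.32000. Cells were cut into 3 equal parts within each mouse, giving 1037 low-ACT and 1041 high-ACT cells besides the 1038 between them. The genes behind the score are not stated in the sources used here, so differences along it are descriptions. High-ACT cells held 11971 ± 677 UMIs per cell and low-ACT cells 6146 ± 566, and 58.4% of high-ACT cells against 9.33% of low-ACT cells were called S. Within a mouse the score and UMIs per cell had a Spearman rho of 0.664 to 0.719 over cells, and the score and the memory score one of -0.765 to -0.667. These are properties of cells that share a library, and carry no p. Because cycle and score run together, the split was also made among G1 cells only, with new cuts in each mouse (561 low-ACT and 567 high-ACT cells, 42 to 119 a mouse), which held 5641 ± 404 and 8252 ± 436 UMIs per cell.

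The promoters of 4 genes are shown because they hold 2 motifs searched in genes that separate high-ACT from low-ACT cells in G1: the E-box bound by Myc with its partner Max (CACGTG) and a kB site (GGG, any 2 bases, then TTTCC). They come from RefSeq (GRCm38.p6) and cover the 250 bases before an annotated start, which for some genes is 1 of several. They are read 5' to 3' on the gene's strand, with each motif in capitals. In GENCODE M21 the gene Ldha starts further upstream, at base 46841475 of chr7, so its window lies inside that gene. Ldha (chr7:46845554-46845803, plus strand), lactate dehydrogenase A, holds 2 E-boxes, starting 145 and 48 bases before the start. Hspd1 (chr1:55088244-55088493, minus strand), a mitochondrial chaperonin, holds 1, at 80 bases. Cdk4 (chr10:127063285-127063534, plus strand), the kinase that D-type cyclins activate, holds 4, at 172, 118, 98 and 11 bases. Nfkbia (chr12:55492648-55492897, minus strand) holds a kB site 29 bases before its start.
Ldha: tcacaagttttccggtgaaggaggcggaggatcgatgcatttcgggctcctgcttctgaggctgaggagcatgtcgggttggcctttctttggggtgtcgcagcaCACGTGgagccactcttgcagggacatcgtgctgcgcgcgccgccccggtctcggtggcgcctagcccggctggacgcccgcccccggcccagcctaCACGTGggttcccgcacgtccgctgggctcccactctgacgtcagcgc
Hspd1: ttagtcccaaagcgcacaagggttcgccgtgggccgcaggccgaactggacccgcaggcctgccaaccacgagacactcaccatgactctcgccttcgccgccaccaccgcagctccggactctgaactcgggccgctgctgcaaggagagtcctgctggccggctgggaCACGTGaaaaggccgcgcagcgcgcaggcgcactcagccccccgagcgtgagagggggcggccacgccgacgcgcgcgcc
Cdk4: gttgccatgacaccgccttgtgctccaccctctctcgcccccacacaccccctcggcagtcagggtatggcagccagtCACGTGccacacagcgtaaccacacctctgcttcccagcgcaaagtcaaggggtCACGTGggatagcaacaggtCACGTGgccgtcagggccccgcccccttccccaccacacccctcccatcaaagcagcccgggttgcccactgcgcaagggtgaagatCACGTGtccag
Nfkbia: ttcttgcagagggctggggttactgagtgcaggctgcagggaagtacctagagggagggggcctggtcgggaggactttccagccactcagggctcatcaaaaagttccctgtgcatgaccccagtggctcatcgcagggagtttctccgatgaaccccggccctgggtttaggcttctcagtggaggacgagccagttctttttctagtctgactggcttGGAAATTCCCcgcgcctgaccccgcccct
On both strands, the E-box was present in 6.02% of 32851 promoters. Counted by gene, with a match in any of its promoters, it was present in 6.86% of 27025 genes. It was present in 10.6% of 6260 genes tested here and in 4 of 19 of the Myc list with a promoter (21.1%). The kB site was present in 1.41% of all promoters and, by gene, in 1.65% of all genes and 1.87% of the tested genes. It was present in 4 of 17 of the NF-kB list (23.5%), namely Nfkb2, Nfkbia, Rel and Tnfaip3. Of these, Rel (0.003, edgeR adjusted p = 0.99) and Tnfaip3 (-0.24, edgeR adjusted p = 0.714) did not pass between high-ACT and low-ACT G1 cells. None of 8 MHC class II genes held either motif in this window. A match describes letters and not binding.

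In G1 cells, the Myc list was higher in high-ACT cells in 23 of 24 tested genes and lower in 1, with a median of 1.06 on the log2 scale, where 14.6% of all 6606 tested genes were higher and 13% lower. Over cells of every phase 23 of 25 were higher and none lower, with a median of 1.08, beside 47.6% of 8262 genes passing, 24.4% higher and 23.1% lower. Myc itself stood at 12.2, 19.0 and 37.1 CPM in low-ACT G1 cells and at 16.8, 58.9 and 71.1 CPM in high-ACT G1 cells. The ranges overlapped, yet it was higher in 6 of 6 mice, by 1.26 ± 0.21. Over every phase Myc lost its call without the second day 10 mouse (1.13) or the second day 22 mouse (1.07). The fits on G1 cells were not repeated with a mouse left out. Srm, which makes the polyamine spermidine, went from 8.13, 22.2 and 33.1 to 44.7, 70.5 and 94.5 CPM without overlap, a difference of 1.70 ± 0.18. Ldha went from 403, 479 and 545 to 756, 819 and 950 CPM, also without overlap. Hspd1 differed by 0.95 ± 0.09 and Cdk4 by 0.55 ± 0.09. Ccnd2, a D-type cyclin, was at 0 to 15.3 CPM and 2.80 to 26.3 CPM. Batf was higher by 1.29 ± 0.31.

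Energy metabolism went the same way. Oxidative phosphorylation genes were higher in high-ACT G1 cells in 16 of 17 cases and glycolysis genes in 9 of 12, with none lower. Of the named genes, Shmt1 and Bcat1, enzymes of folate and branched-chain amino acid metabolism, had differences of 2.33 and 2.14. The opposite end was led by Abcg1, a cholesterol exporter, at -1.74, and by Mxd4, a Max partner that opposes Myc. Mxd4 stood at 69.1, 74.1 and 103 CPM in low-ACT and 20.3, 23.7 and 41.9 CPM in high-ACT G1 cells, with no overlap and a difference of -1.71 ± 0.17. Cell cycle brakes were lower in 5 of 8 cases and germinal centre factors in 6 of 15, with 1 higher. Among those 6, Bcl6, the repressor that the germinal centre depends on, differed by -0.56.

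All 22 replication genes were higher in high-ACT cells of every phase, and 8 of 18 were in G1 cells alone. Mitosis genes were higher in 20 of 21 over every phase, while in G1 cells none was higher and 5 of 21 were lower.

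NF-kB genes had more members higher in G1 cells than over every phase, a difference between fits that was not tested. Over every phase 6 of 18 NF-kB genes were higher and 2 lower in high-ACT cells, and in G1 cells 10 of 18 were higher and none lower. Nfkbia was at 220, 281 and 348 CPM in low-ACT and 271, 358 and 487 CPM in high-ACT G1 cells, overlapping between mice, with a difference of 0.43 ± 0.07. Bcl2a1d, a BCL2-family survival protein of the A1 group, was at 17.6, 25.7 and 33.2 against 58.7, 66.0 and 90.4 CPM with no overlap. This gene has near-identical copies between which reads could be split. Cd40 differed by 0.53 ± 0.11 in G1 cells, from 52.9, 106 and 137 to 120, 153 and 172 CPM, and by 0.02 over every phase (edgeR adjusted p = 0.874). Nfkb2, an NF-kB subunit, differed by 0.53 ± 0.16 in G1 cells. Over every phase Nfkbia lost its call without the first day 10 mouse (0.13) or either day 22 mouse (0.14 each). Nfkb2 lost its call there without the second day 10 (0.27), first day 16 (0.25) or first day 22 mouse (0.26).

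**Figure D3:**
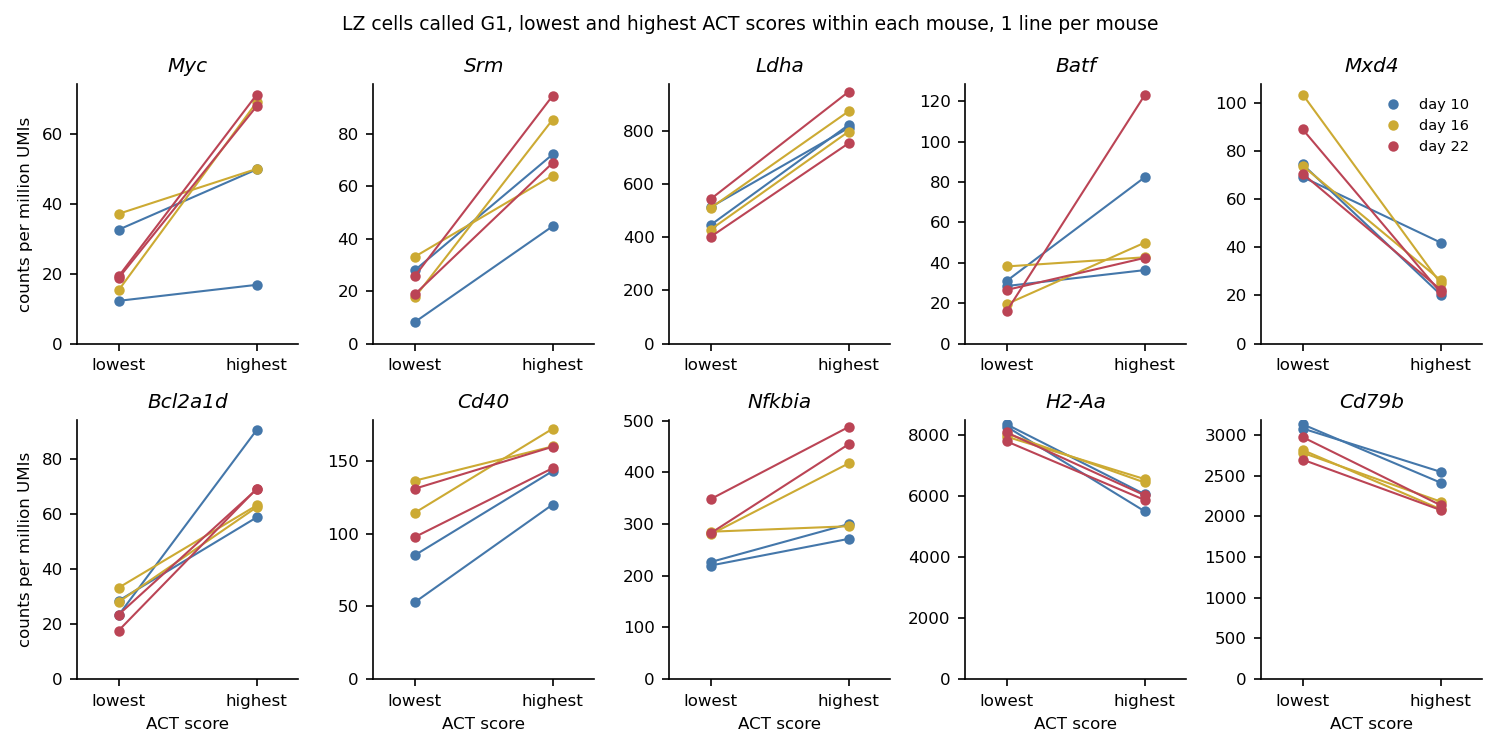
CPM (y axes, from 0) of 10 genes in LZ cells called G1 with the lowest and the highest ACT scores of each mouse (x axis), with 1 line per mouse coloured by day. Myc, Srm, Ldha, Batf, Bcl2a1d, Cd40 and Nfkbia rise with the score, and Mxd4, H2-Aa and Cd79b go down.

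Of the 5 light zone markers, 4 were lower in high-ACT cells over every phase and none was in G1 cells. Il4i1 changed sign, with -0.71 ± 0.13 over every phase and 0.36 in G1 cells (edgeR adjusted p = 0.0596). Cd83 had -0.52 over every phase and -0.05 in G1 cells (edgeR adjusted p = 0.661). Egr1 passed only in G1 cells, at 0.37 (edgeR adjusted p = 0.0152). The difference between these fits was not tested.

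Antigen presentation and receptor genes were lower in CPM in both splits. MHC class II genes were lower in 10 of 11 cases in high-ACT G1 cells (median -0.39) and in 11 of 11 over every phase (median -0.66), and B cell receptor signalling genes in 11 and 15 of 16. H2-Aa, a chain of the class II molecule, had 7795 to 8351 CPM in low-ACT and 5504 to 6558 CPM in high-ACT G1 cells. Cd79b, a signalling chain of the B cell receptor, differed by -0.38 ± 0.03 and Cd22, an inhibitory coreceptor, by -0.69 ± 0.09. Per G1 cell the order turned: MHC class II genes gave 331 ± 26.2 UMIs in low-ACT and 380 ± 16.4 in high-ACT cells, B cell receptor genes 54.7 ± 5.27 and 64.5 ± 5.83, and the 5 markers 8.93 ± 1.27 and 13.6 ± 1.52. The Myc list went from 22.5 ± 1.42 to 55.3 ± 5.21 UMIs per G1 cell and Myc alone from 0.124 to 0.439. Over every phase, the summed level of myeloid markers was 7.62 to 172 CPM in high-ACT and 11.5 to 93.1 CPM in low-ACT cells. That of T cell markers was 78.3 to 175 and 85.1 to 125 CPM, with Cd3e at 0 in both. Their part in the differences was not tested.

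**Figure D4:**
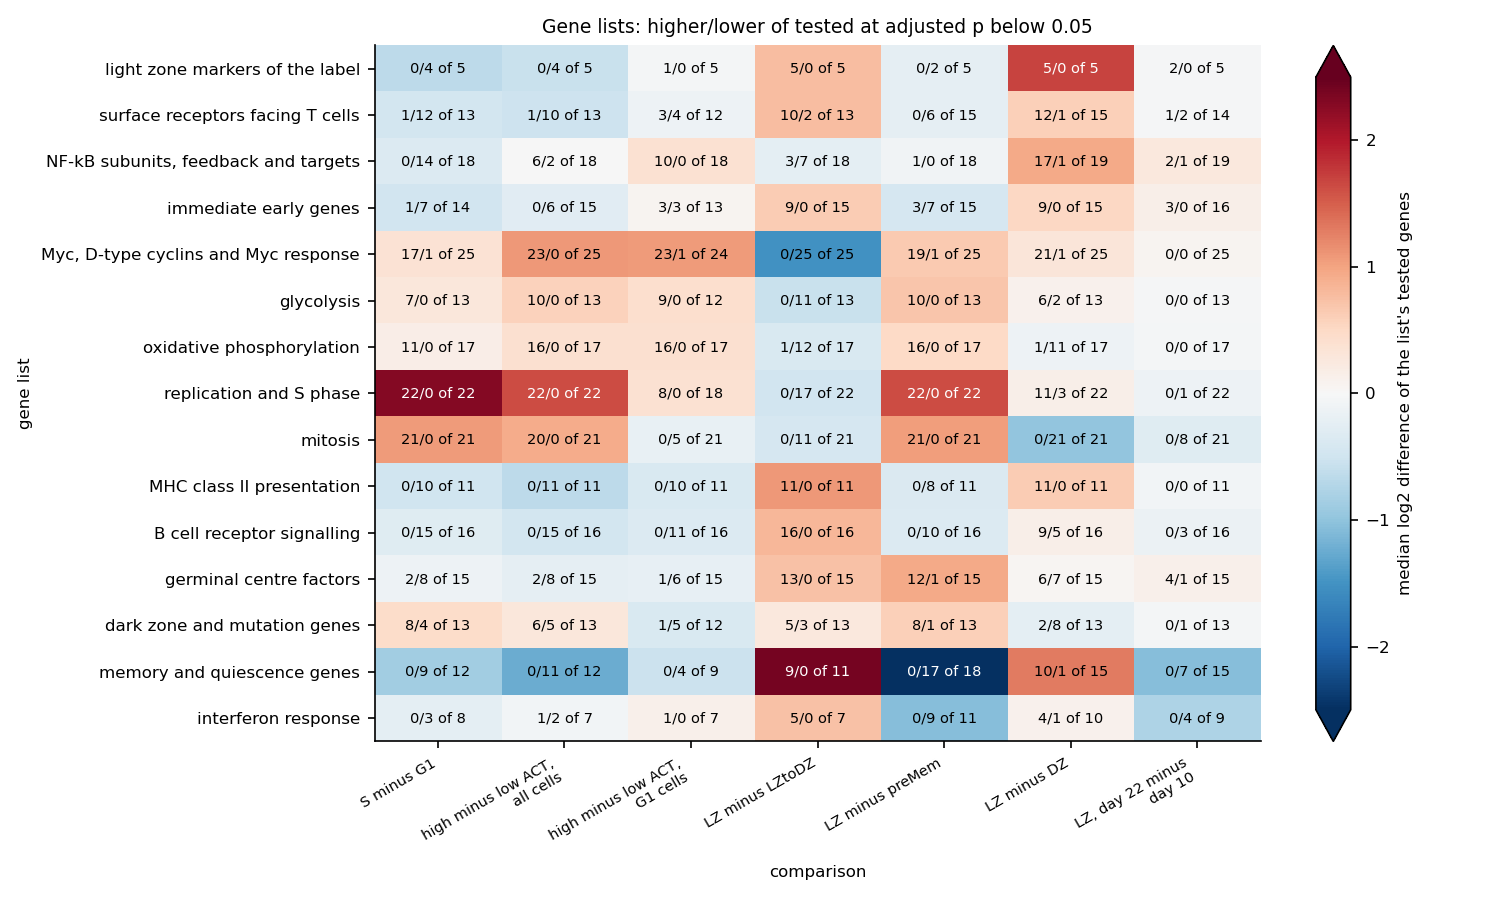
Median log2 difference (colour) of the tested genes of 15 lists (y axis) in 7 comparisons (x axis). Each cell gives the number of genes higher and lower at an adjusted p below 0.05, of those tested. The Myc list has 25 of 25 genes lower in LZ than in LZtoDZ cells, and the last column, between days, has none.

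Against LZtoDZ cells, LZ cells held less RNA of Myc targets and growth and more of antigen presentation and receptor signalling in CPM. All 25 tested genes of the Myc list were lower in LZ cells, with a median of -1.51, all 11 MHC class II genes were higher with a median of 1.09, and all 16 B cell receptor signalling genes were higher with a median of 0.83. Per cell the last 2 lists had the opposite order, since LZtoDZ cells held more UMIs: MHC class II genes gave 385 ± 30.3 UMIs in LZ and 474 ± 42.5 in LZtoDZ cells, and B cell receptor genes 66.4 ± 6.37 and 79.2 ± 6.63. The Myc list gave 54.0 ± 3.43 and 430.5 ± 66.4 UMIs per cell. Over 8835 genes 50.6% passed, 26.4% higher and 24.2% lower, with a median of 0.04, and nothing is read from these counts because a cut on the ACT score lies between the states. Ccnd2 had 2.67, 8.14 and 9.73 CPM in LZ sums and 47.6, 81.6 and 146 CPM in LZtoDZ sums. Myc had 31.6, 43.8 and 52.7 CPM against 110, 159 and 207 CPM, a difference of -1.87 ± 0.20. In neither gene did the ranges overlap. Fabp5, a fatty acid carrier, Tnfrsf8, the receptor CD30, and Slc19a1, a folate carrier, were lower by -3.15 ± 0.27, -4.20 ± 0.35 and -2.78.

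Germinal centre factors were higher in LZ than in LZtoDZ cells in 13 of 15 cases in CPM and none was lower, while their sum per cell was 35.9 ± 1.61 UMIs in LZ and 65.4 ± 8.47 in LZtoDZ cells. In CPM, Bcl6 had 54.8, 60.4 and 66.5 CPM against 15.9, 23.9 and 37.6 CPM, without overlap. Apoe, a lipid carrier, stood at 302, 343 and 413 CPM against 4.18, 40.5 and 81.7 CPM. Icosl, the ligand of ICOS on T cells, differed by 2.995. The signals of T cell contact were uneven: 10 of 13 genes were higher in LZ cells in CPM (18.5 ± 1.12 UMIs per cell for the list, against 34.7 ± 4.97), Icam1 and Tnfsf9 were lower, and Cd40 did not pass (-0.19, edgeR adjusted p = 0.0864), though it did without the first day 16 mouse or the first day 22 mouse (-0.24 each). NF-kB genes split into 3 higher and 7 lower of 18, with Nfkbia not passing (-0.35, edgeR adjusted p = 0.0848) unless the first day 22 mouse was left out (-0.48). The LZtoDZ sums rest on 10 to 53 cells a mouse, and 3 mice had at least 30. Most LZtoDZ cells were called S, and a comparison within G1 was not made because 16 LZtoDZ cells were called G1.

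Next to preMem cells, LZ cells held little RNA of recirculation and memory and more of the germinal centre factors. The memory list was lower in LZ cells in 17 of 18 cases with a median of -4.34, where 12.8% of 9449 genes were lower, 17.5% higher and 30.4% passed in all. A cut on the memory score lies between the states, so nothing is read from this count. Klf2, a transcription factor of quiescent and recirculating lymphocytes, had 5.29, 7.76 and 18.0 CPM in LZ sums and 216, 268 and 307 CPM in preMem sums. Gpr183, the oxysterol receptor EBI2 that draws B cells out of the germinal centre, had 2.64, 6.83 and 13.8 CPM against 69.3, 128 and 152 CPM. Every LZ sum lay below every preMem sum for both genes. Bcl2, the survival protein that germinal centre cells lose, differed by -4.05. Naive B markers summed to 287 to 466 CPM in preMem cells, and their part in the difference was not tested.

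Germinal centre factors were higher in LZ than in preMem cells in 12 of 15 cases, with 1 lower, Mef2c. Mef2b, a transcription factor upstream of Bcl6, had 148, 222 and 253 CPM against 35.1, 61.3 and 74.9 CPM, and S1pr2, which confines cells to the germinal centre, 167, 189 and 211 CPM against 56.3, 67.3 and 87.7 CPM. Neither gene's ranges overlapped. Rgs13, which damps chemokine receptor signals, overlapped, with 148, 297 and 368 CPM against 78.3, 119 and 199 CPM. Jchain, the joining chain of secreted IgM and IgA, had 929, 940 and 1008 CPM in LZ and 234, 312 and 395 CPM in preMem cells. Oxidative phosphorylation genes were higher in 16 of 17 cases and the Myc list in 19 of 25, with 1 lower, Ccnd2. These counts are over every phase. In G1 cells alone Myc (0.03, edgeR adjusted p = 0.973) and Srm (0.29, edgeR adjusted p = 0.426) did not pass. Ldha (0.69), Hspd1 (0.41) and Cdk4 (0.52) were higher in LZ cells there.

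The 5 markers had no common direction between LZ and preMem cells. Fcer2a was lower in LZ cells (-0.73), Cd83 slightly lower (-0.23, and 0.09 in G1 cells with an edgeR adjusted p of 0.442), and Cd86, Il4i1 and Egr1 did not pass, with edgeR adjusted p values of 0.748, 0.342 and 0.094. In G1 cells alone Cd86 was higher in LZ cells (0.37 ± 0.12, edgeR adjusted p = 0.0395) and Fcer2a lower (-0.42 ± 0.09, edgeR adjusted p = 0.000249), and Il4i1 and Egr1 did not pass. Without the first day 10 mouse Cd83 no longer passed (-0.17) and Egr1 did (1.20), as Egr1 did without the second day 16 mouse (0.84). Over every phase, MHC class II genes were lower in LZ cells in 8 of 11 cases, with none higher. Interferon response genes were lower in 9 of 11, with none higher. Per cell the MHC class II genes had the opposite order, with 385 ± 30.3 UMIs in LZ and 295 ± 28.9 in preMem cells. With G1 cells alone 10.8% of 8278 genes were higher and 9.17% lower. The memory list had 17 of 18 lower with a median of -3.81, germinal centre factors 12 of 15 higher, and oxidative phosphorylation 16 of 17 higher. Mitosis genes went from 21 of 21 higher to none higher and 1 lower. Of the MHC class II genes, H2-Ab1 was higher in LZ cells called G1 (0.17, edgeR adjusted p = 0.00222). H2-Aa and H2-Eb1 were lower (-0.19 and -0.11), and Cd74 and Ciita did not pass.

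Days are compared within the 1 named state, and each day has 2 mice. The borders on the scores hold for cells of every day, so the naming may still play a part, which was not tested. Of 9726 genes tested in LZ sums, 2.43% changed over the 3 days and 3.36% between day 22 and day 10, 1.4% higher and 1.96% lower at day 22 (136 and 191 genes, edgeR quasi-likelihood test). Both day 22 mice lay above both day 10 mice in 23% of the genes and below in 23.6%. The count is sensitive to single mice: it was 89 without the first day 22 mouse and 166 without the second. It was 137 with DESeq2. The p values measure the spread between 2 mice a day, with spread shared between genes. Cells also shifted between days, without passing a test: the G1 share was 47.4% at day 10, 56.6% at day 16 and 57.8% at day 22 (exact permutation test over 90 assignments, p = 0.0667, adjusted p = 0.207 over 7 measures), and the median UMIs per cell were 8827, 7651 and 7284 (exact p = 0.0667, adjusted p = 0.207). The LZ share of the fraction was 48.9%, 54.3% and 49.7% (exact p = 0.956). The smallest p this design allows is 0.0222. A single measure at that p would not pass the adjustment over 7 measures, so the lack of a pass decides nothing.

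Genes that fell from day 10 included Sdc4, Lgals9 and Cd72, whose products act at the cell surface. Sdc4, the heparan sulfate proteoglycan syndecan 4 (chr2:164424247-164443887), stood at 26.5 and 34.0 CPM at day 10, at 5.24 and 9.06 CPM at day 16 and at 4.22 and 4.96 CPM at day 22. The log2 difference of day 22 from day 10 was -2.74 ± 0.23 (edgeR adjusted p = 1.32e-06). Lgals9, the sugar-binding protein galectin 9 (chr11:78962974-78984946), stood at 52.6 and 55.5, 15.7 and 13.8, and 12.1 and 14.5 CPM on the 3 days (-2.03 ± 0.14, edgeR adjusted p = 3.56e-07). Both genes had most of their drop between day 10 and day 16, and day 16 and day 22 mice overlapped for Lgals9. Cd72, an inhibitory coreceptor of B cells (chr4:43446462-43454628), went from 216 and 228 CPM to 115 and 114 and then 75.1 and 100 CPM (-1.34 ± 0.11, edgeR adjusted p = 0.000205). Serpinb6b, a protease inhibitor, fell by 2.17, Cmah, which modifies sialic acid, by 2.02, and Cfp, the complement factor properdin, by 1.48 on the log2 scale.

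Genes that rose included Rgs13, Rgs10, Tox2 and some germinal centre factors. Of 8 tested RGS and G protein regulators, which damp or carry the signals of chemokine and lipid receptors, 2 rose, 1 fell and 5 did not pass. Rgs13 (chr1:144138654-144177372) stood at 149 and 186 CPM at day 10, 321 and 281 at day 16 and 372 and 374 at day 22 (edgeR adjusted p = 0.000904). Rgs10, of the same family, stood at 64.2 and 76.1, 117 and 115, and 146 and 148 CPM (1.05 ± 0.08, edgeR adjusted p = 4.97e-07). Rgs18, also of that family, went the other way, from 9.99 and 13.8 CPM at day 10 to 3.39 and 3.45 at day 16 and 1.53 and 2.48 at day 22 (-2.60 ± 0.32, edgeR adjusted p = 6.85e-05). Tox2, an HMG-box transcription factor, stood at 7.69 and 7.82, 13.6 and 16.2, and 23.8 and 29.8 CPM (1.78 ± 0.18, edgeR adjusted p = 1.26e-05). In all 4 genes the mice of the 3 days did not overlap and day 16 lay between. Mef2b rose by 0.64 ± 0.07 and S1pr2 by 0.35 ± 0.06, a call that was lost without the first day 22 mouse (0.35). Of 15 germinal centre factors 4 rose and 1 fell.

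Among the markers of the light zone, Egr1 and Il4i1 rose and Cd83 and Cd86 did not pass. Egr1 stood at 58.8 and 59.3 CPM at day 10, 91.5 and 104 at day 16 and 106 and 109 at day 22 (0.87 ± 0.08, edgeR adjusted p = 7.99e-06). Il4i1 rose by 0.42 (edgeR adjusted p = 0.00989), a call lost without the first day 10 mouse (0.29) or either day 22 mouse (0.45 and 0.39), and in G1 cells alone (0.25, edgeR adjusted p = 0.0533). Cd83 had -0.09 and Cd86 -0.02 (edgeR adjusted p = 0.4995 and 0.955). Fcer2a had 253 and 326 CPM, 205 and 212, and 149 and 179 CPM and missed the threshold (-0.83 ± 0.15, edgeR adjusted p = 0.072). In G1 cells alone it passed (-0.75, edgeR adjusted p = 0.000639), as it did without either day 10 mouse (-0.99 and -0.62) or without the second day 22 mouse (-0.97). Junb, a partner in the AP-1 complex, rose by 0.48, and Tnfsf9 by 1.09.

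**Figure D5:**
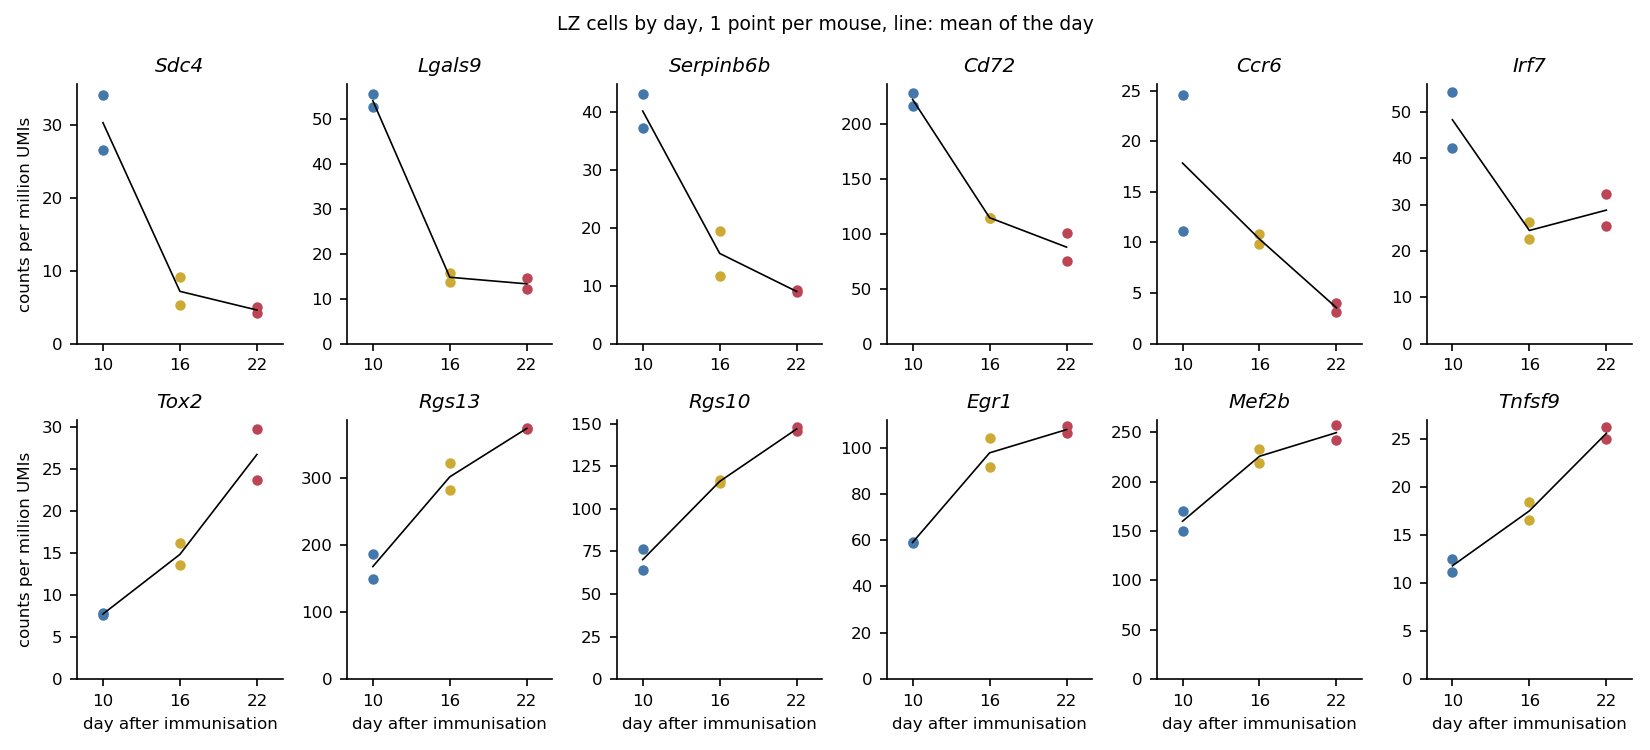
CPM (y axes, from 0) of 12 genes in LZ sums against the day after immunisation (x axis), with 1 point per mouse and a line through the means of the days. Sdc4, Lgals9, Serpinb6b, Cd72, Ccr6 and Irf7 are lower at day 22 than at day 10, and Tox2, Rgs13, Rgs10, Egr1, Mef2b and Tnfsf9 are higher.

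The memory list fell in 7 of 15 tested genes and rose in none, with a median of -1.06. Ccr6, a chemokine receptor of memory and naive B cells, stood at 11.1 and 24.5 CPM at day 10, 9.85 and 10.8 at day 16 and 3.07 and 4.01 at day 22. Klf2 stood at 10.8 and 18.1, 8.31 and 6.47, and 5.37 and 7.44 CPM. Neither call held in every fit with a mouse left out. That of Ccr6 was lost without the second day 16 mouse (-2.43) or either day 22 mouse (-2.24 and -2.63). That of Klf2 was lost without the second day 10 mouse (-0.75) or either day 22 mouse (-1.02 and -1.49). In G1 cells alone both passed, Ccr6 at -2.73 and Klf2 at -1.36 (edgeR adjusted p = 1.13e-07 and 0.00225). Beside these, Ighd, a naive B marker, fell by 1.17 (edgeR adjusted p = 0.00831), a call lost without the second day 10 mouse (-0.74) or either day 22 mouse (-1.25 and -1.09), and its part was not tested. Interferon response genes fell in 4 of 9 and each of these calls was lost when some mouse was left out. Irf7, their transcription factor, stood at 42.3 and 54.3, 22.5 and 26.3, and 32.2 and 25.4 CPM, and lost its call without the second day 10 mouse (-0.55) or the second day 22 mouse (-0.61). The Myc, MHC class II, glycolysis and oxidative phosphorylation lists had no gene that passed. Myc itself had 0.30 (edgeR adjusted p = 0.467). The marker Cd68 of myeloid cells rose by 1.02 (edgeR adjusted p = 0.0156), from 5.38 and 6.62 CPM to 11.5 and 13.7 CPM, a call lost without either day 10 mouse (0.93 and 1.23) or either day 22 mouse (1.15 and 0.89).

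Restricting the days to G1 cells left 0.944% of 8584 genes higher and 1.9% lower at day 22. Mitosis genes, of which 8 of 21 fell over every phase, then had none past the threshold, and the memory list had 6 of 12 lower. Rgs13, Rgs10, Tox2 and Egr1 had differences of 1.02, 1.01, 2.42 and 1.03, and Sdc4, Lgals9, Cd72 and Rgs18 of -3.19, -2.35, -1.44 and -2.87.

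The same genes were read in the DZ sums of the same mice. Sdc4 stood there at 18.7 and 18.4 CPM at day 10 and 2.61 and 3.89 at day 22, and Lgals9 at 30.8 and 49.6 and then 7.52 and 4.97 CPM, with 4.62 and 7.73 CPM at day 16. Rgs13 stood at 145 and 167 and then 334 and 362 CPM, and Rgs10 at 79.2 and 77.5 and then 182 and 151 CPM. In DZ as in LZ sums both day 22 mice lay below both day 10 mice for Sdc4 and Lgals9 and above them for Rgs13 and Rgs10. Whether the size differs between states was not tested. Egr1 was lower in DZ than in LZ cells on each day, and rose in DZ cells too, from 19.9 and 21.3 CPM at day 10 to 29.8 and 46.1 at day 22.

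Whether the gap between high-ACT and low-ACT cells changed with the day was tested as an interaction. It passed in 25 of 8262 genes, or 0.303%, and 16 of these were immunoglobulin variable genes. The count is unstable: it was 6 with DESeq2, 82 with no filter on low counts, and 40, 94 and 80 without the first day 10 mouse and the first and second day 22 mouse. In the fit with all 6 mice, none of the Myc, NF-kB or MHC class II genes was among the 9 others. Tuba1b, an alpha tubulin, was higher in high-ACT cells by a log2 ratio of means of 1.15 at day 10, 1.78 at day 16 and 1.73 at day 22 (edgeR adjusted p = 6.21e-05), and Tubb5, a beta tubulin, by 1.03, 1.44 and 1.40. Low-ACT cells had 465 CPM of Tuba1b at day 10 and 331 and 322 CPM later, and high-ACT cells had 1033, 1140 and 1069 CPM. The myeloid gene Lyz2 also passed.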

How the data were processed

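Per the labels, the non-PC and PC fractions were captured in separate wells. Cell Ranger, Seurat and the genome mm10/GRCm38 stand in the submitters' processing notes, without versions. The deposited matrix holds UMI counts for 14493 genes in 6619 cells, and the deposited cell table holds scores per cell (ACT, memory and others, unit: score), phase, state, day and mouse. How states, phases and scores were made, and how doublets were treated, is not stated in the sources used here. No cell of the compared states was removed before the main fits.

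Counts were summed per mouse (at least 10 cells) and tested with edgeR 4.0.16 (R 4.3.3; filterByExpr, TMM, robust quasi-likelihood F test), with the mouse as a block where the populations came from the same mice. Same-numbered sums come from the same animal, by the cell table. Adjusted p values are Benjamini-Hochberg values across every gene in a fit, with a threshold of 0.05. Mice are the replicates, and p values measure their spread. Scripts were tested on simulated data. Shares of cells were compared between days by exact permutation. Alternatives were DESeq2 1.42.0, other scaling and filters, cells thinned to 4748 UMIs, G1 cells only, and each mouse left out.

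Genes were named by rule: the 8 largest differences in each direction with at least 20 CPM and 1 direction in every mouse, plus the 4 of lowest p in each list. Myc, Nfkb2, Klf2, Vim, Ighd and Cd68 between days, and others outside it, were chosen after their values were seen. The cells and the 31 gene lists (313 of 320 genes in the matrix) were chosen with earlier results of these data known.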

Additional observations from a re-analysis of the deposited data

Results flagged for a closer look

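Of 120 sets of per-mouse values checked, 7 had a mouse far from the other 5, where chance flags about 1 in 20. The sets were shares, depth and scores of LZ cells, CPM of the 5 markers in LZ cells, and differences of named genes. The differences were log2 ratios of CPM plus 1 within a mouse, and all 7 flagged sets were of this kind. Between LZ and DZ cells, Nfkbia stood at 1.974 in the first day 22 mouse and at 1.412 to 1.607 in the others, and Rgcc at -2.034 in the second day 16 mouse against -1.809 to -1.68. Between LZ and LZtoDZ cells, Ccnd2 stood at -5.329 in the first day 10 mouse (others -3.399 to -2.409) and Tnfsf9 at -2.663 in the same mouse (others -1.196 to -0.4977). In the first day 22 mouse Fabp5 stood at -1.85 (others -3.666 to -3.052) and Tnfrsf8 at -1.964 (others -3.988 to -3.474). S1pr2 stood at 0.8458 in the second day 16 mouse (others 0.6724 to 0.7135).

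The gap between high-ACT and low-ACT cells differed between days in 9 genes that are not immunoglobulin genes (edgeR quasi-likelihood interaction). Their adjusted p values were 6.211e-05 for Tuba1b, 7.067e-05 for Lyz2, 0.002011 for Tubb5, 0.003518 for Ptma, 0.01101 for Jchain, 0.01113 for Hmgb2, 0.015 for H2afx, 0.02562 for H2afz and 0.03537 for Ltb. Lyz2, a myeloid gene, had 23.9, 94.4 and 72.5 CPM in high-ACT cells and 3.12, 0.695 and 36.8 CPM in low-ACT cells at days 10, 16 and 22. Ptma, Hmgb2, H2afx and H2afz, genes of chromatin, had wider gaps at days 16 and 22 than at day 10. Ptma had log2 ratios of 0.93, 1.23 and 1.14, and H2afz of 1.323, 1.598 and 1.639. Jchain went from 0.32 at day 10 to -0.03 and -0.11.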

How the results depend on the processing

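The counts of genes past the threshold kept within 1.5 times of the main value in 88 of 114 alternatives. Without the replicate block, the pairing of populations within a mouse, counts were 4402 for LZ against LZtoDZ cells, 3073 against preMem, 2579 against DZ, 2946 for S against G1, 2784 for G2M against G1 and 3609 for the ACT split, and none of these left 1.5 times. Cells thinned to 4748 UMIs gave 2486 genes against LZtoDZ, 1707 against preMem and 2138 against DZ cells, 2279 for S and 1952 for G2M. Thinning left out 613 cells of the 4 states that lay below that depth, 286 of them LZ cells. G1 cells alone gave 1657 against preMem, 1616 against DZ and 1827 for the ACT split. DESeq2 gave 1417 against DZ cells, 2177 for S, 1797 for G2M, 2068 for the ACT split, 6 for its change with day, 125 over the 3 days and 137 between day 22 and day 10. With no filter on low counts the last 3 were 82, 567 and 613, and without immunoglobulin genes the change with day had 15. With a mouse left out, the counts ranged from 3969 to 4445, 2114 to 2674, 2883 to 3281, 3001 to 3286, 2700 to 2982, 3563 to 3802, 28 to 94, 100 to 220 and 89 to 334 in the order of LZtoDZ, preMem, DZ, S, G2M, ACT split, its change with day, 3 days, and day 22 against day 10. G1 cells alone turned the sign of Cdc20 against DZ (0.058), Il4i1 in the ACT split (0.36), Cd83 against preMem (0.093) and Top2a between days (0.11). Of 43 genes named between days, 21 changed their call when some mouse was left out. The cause of these changes was not tested. G1 cells alone were not run against LZtoDZ cells.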
